A study of Homo sapiens with 8 samples.

Results

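Metallothioneins are small cysteine-rich proteins that bind zinc and copper, and 6 of their genes, MT1E, MT1F, MT1G, MT1M, MT1X and MT2A, are described here out of 23393 genes in the count table. They form a list of gene names set with no threshold on measured values, although earlier results of these data were known, and 4 of the 6 passed the expression filter (MT1E, MT1F, MT1X and MT2A). RNA-seq was performed in MDA-MB-231, an established human triple-negative breast cancer cell line, and in its ρ0 derivative, a single line (clone 27) whose mitochondrial DNA was depleted with ethidium bromide. Each line was kept in full medium (control) or starved of arginine for 48 h, which gave 4 groups of 2 libraries each and 8 libraries in all. The sample labels describe starvation as arginine deiminase, an arginine-degrading enzyme, at 0.3 µg/mL in full medium, whereas the study's text describes arginine-starved medium. According to its methods, that medium held dialyzed serum, and the serum of the maintenance medium is not described as dialyzed. If that medium was used, loss of arginine and the change of serum cannot be told apart. According to the study's methods, ρ0 cells were maintained with added pyruvate, uridine and ethidium bromide, which are not listed as additions for parental cells. Whether the base medium of parental cells held pyruvate is not stated. An effect of these supplements and an effect of mitochondrial DNA loss therefore cannot be told apart.

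Metallothioneins hold metal ions through their cysteines, buffer free zinc and copper, and can react with oxidants. Zinc activates the transcription factor MTF1, which binds metal response elements in the promoters of these genes and of the zinc exporter SLC30A1, and glucocorticoids can also induce MT2A. The human genes lie side by side on chromosome 16, and MT2A and MT1X are expressed in most tissues.

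The libraries held 25259503 to 31022155 counts. The replicates of a group differed beyond sampling noise in all 4 groups, most in ρ0 control, where chi-square per degree of freedom was 91.32 against 1.729 to 5.371 in the other groups. VIM, CD44, KRT8, KRT18, AXL and MSN, which mark MDA-MB-231 cells, were detected in every library, and ESR1 and PGR, the hormone receptors the line lacks, did not exceed 0.18 and 0.0347 CPM (counts relative to library size, after TMM normalisation). The lines differed in other luminal markers. ERBB2, also expected to be low in this line, had 30.1 to 59.7 CPM in parental and 58.9 to 86.9 CPM in ρ0 libraries. GATA3 had 4.38 to 5.57 CPM in parental and 10.4 to 18.6 CPM in ρ0 libraries. CDH1 (E-cadherin) had at most 0.0709 CPM in parental libraries and 4.31 to 15.9 CPM in ρ0 libraries, EPCAM had at most 0.521 CPM and 16.4 to 23.7 CPM, and FOXA1 had 7.35 to 9.82 CPM and at most 0.135 CPM. None of the 13 protein genes of mitochondrial DNA was in the table, so the ρ0 label could not be checked on them.

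The promoters of MT2A and MT1X are shown because these genes had the most counts in parental control cells and because the metal response element is the sequence through which MTF1 acts. The RefSeq promoter table (GRCh38.p14) held 2 of the 6 members. MT1E, MT1F, MT1G and MT1M had no entry. The 250 bases before each transcription start are given 5′ to 3′ on the plus strand, with the core of the metal response element in capitals (TGCACNC or TGCGCNC on either strand), for MT2A at chr16:56608334-56608583 and MT1X at chr16:56682220-56682469.
MT2A: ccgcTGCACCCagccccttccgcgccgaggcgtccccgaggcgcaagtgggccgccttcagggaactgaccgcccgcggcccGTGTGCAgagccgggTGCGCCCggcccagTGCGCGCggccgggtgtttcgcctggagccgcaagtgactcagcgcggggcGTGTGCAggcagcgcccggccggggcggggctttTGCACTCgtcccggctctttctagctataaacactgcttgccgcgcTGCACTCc
MT1X: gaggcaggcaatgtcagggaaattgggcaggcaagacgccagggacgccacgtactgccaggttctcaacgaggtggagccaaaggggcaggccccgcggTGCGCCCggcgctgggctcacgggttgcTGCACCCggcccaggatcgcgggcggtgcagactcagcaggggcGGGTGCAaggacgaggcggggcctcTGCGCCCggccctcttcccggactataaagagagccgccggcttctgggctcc
The MT2A promoter held 7 cores and the MT1X promoter 4. Of 35116 promoters of the same length, 24.8% held at least 1 core, 0.37% at least 4 and 0.0313% at least 7. The core nearest the start lay 8 to 2 bases before it in MT2A and 53 to 47 bases before it in MT1X. Both promoters held 1 TATA box (TATAAA on the gene's strand), which 6.8% of promoters held, and 1 match to the antioxidant response element (TGACNNNGC on either strand), which 10.9% held. These matches describe the letters only, and binding was not measured.

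MT2A, the only MT2 gene in the cluster, was the most abundant metallothionein in all 8 libraries and fell in arginine-starved parental cells. It had 125.9 and 134.7 CPM in parental control and 28.31 and 28.64 CPM in parental starved libraries. In ρ0 cells it had 87.11 and 78.85 CPM in control and 107.3 and 107.9 CPM in starved libraries. The groups did not overlap in either line, and the order of the groups was opposite in the 2 lines. Starvation changed MT2A by a log2 fold change of -2.19 ± 0.0853 (SE, edgeR's quasi-likelihood test, Benjamini-Hochberg adjusted p = 6.6e-06) in parental cells, a level 4.57-fold lower. In ρ0 cells the change was 0.38 ± 0.081 (adjusted p = 0.0089), which did not reach the study's fold threshold (a log2 fold change above 1 or below -1), and the adjusted p was 0.065 when the fit held only the 4 ρ0 libraries, 0.063 without ρ0 starved replicate 1 and 0.064 without ρ0 starved replicate 2. Nothing in the labels says that the 2 libraries of a group came from separate cultures, so the p-values measure only the spread between these libraries.

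MT1X, an MT1 gene at the far end of the cluster from MT2A, also fell in arginine-starved parental cells, and it rose in arginine-starved ρ0 cells. It had 39.66 and 39.39 CPM in parental control and 9.029 and 8.401 CPM in parental starved libraries. In ρ0 cells it had 14.85 and 10.1 CPM in control and 26.26 and 24.77 CPM in starved libraries. The highest libraries were those of parental control and the lowest those of parental starved cells. The log2 fold change was -2.18 ± 0.1785 in parental cells (adjusted p = 4.3e-05, 4.54-fold lower) and 1.03 ± 0.173 in ρ0 cells (adjusted p = 0.0031, 2.05-fold higher). The rise in ρ0 cells lay near the fold threshold and depended on the ρ0 control libraries. It was 0.80 without replicate 2, 1.34 without replicate 1, and 0.96 when libraries were scaled by total counts.

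MT1E, the nearest protein-coding MT1 gene to MT2A, did not follow MT2A and MT1X in parental cells. It had 20.84 and 24.35 CPM in parental control, 22.26 and 22.01 CPM in parental starved, 25.64 and 19.68 CPM in ρ0 control, and 59.25 and 56.99 CPM in ρ0 starved libraries. Both ρ0 starved libraries stood above all 6 other libraries, among which the groups overlapped. The log2 fold change was 1.36 ± 0.143 in ρ0 cells (adjusted p = 0.00049, 2.57-fold higher) and -0.03 ± 0.1432 in parental cells (adjusted p = 0.87). The parental value changed sign between the fits that left out 1 library, which ranged from -0.14 to 0.08.

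**Figure D1:**
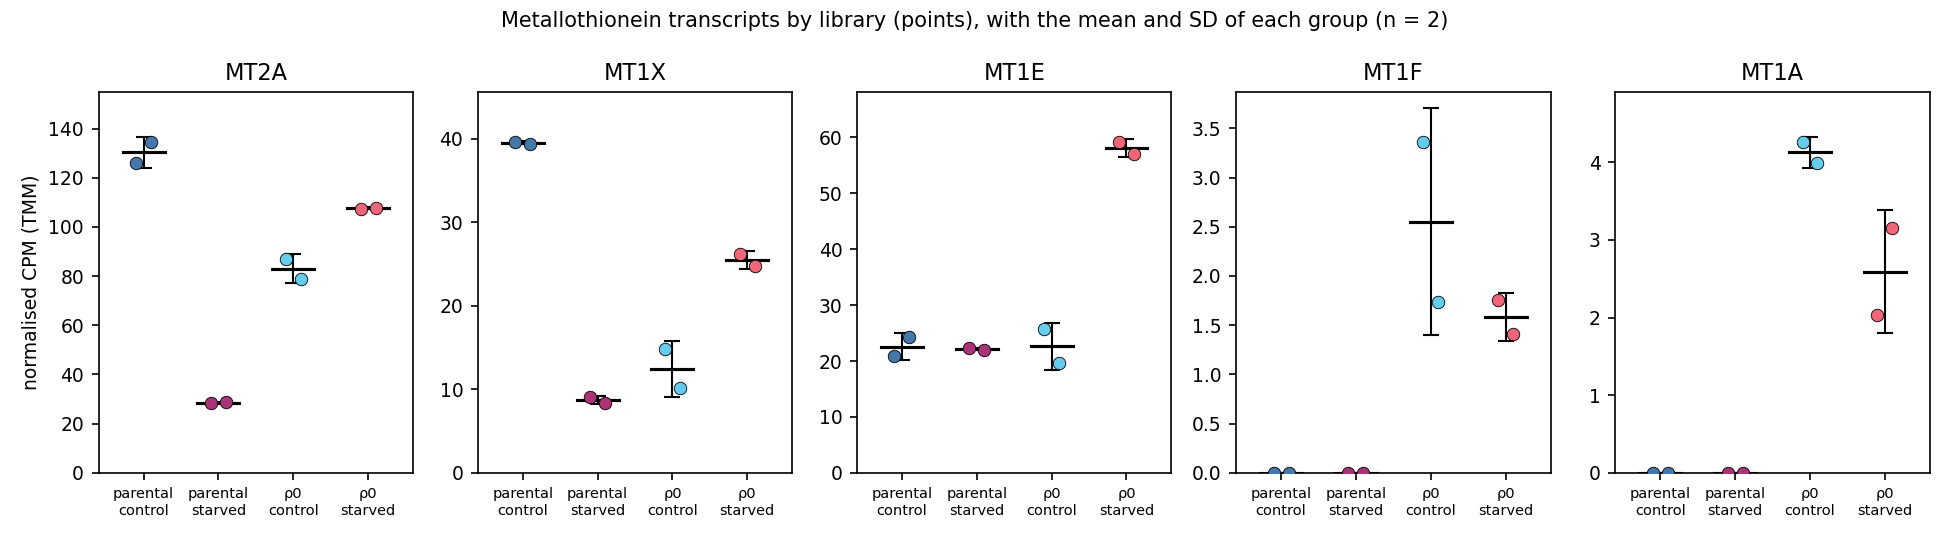
Normalised CPM (vertical axis, a separate linear scale from 0 for each gene) of the 4 metallothioneins that passed the filter and of MT1A in the 4 groups, with a point for each library, a line at the mean and bars of 1 SD (n = 2). MT2A and MT1X are lowest in parental starved cells (28.48 and 8.715 CPM on average), MT1E is highest in ρ0 starved cells (58.12 CPM), and MT1F and MT1A are at 0 in the parental libraries.

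Thus 2 of the 6 metallothioneins (MT2A and MT1X) were called lower and 0 higher in starved parental cells, where 22.1% and 12.7% of the 15262 tested genes were called lower and higher. In starved ρ0 cells 2 (MT1E and MT1X) were called higher and 0 lower, against 4.22% and 8.19% of tested genes. Of the 6 members 4 were tested, and MT1F had no counts in parental cells, so that the counts are too small to be read against these shares. The median log2 fold change of all tested genes was -0.07 in parental cells and -0.02 in ρ0 cells.

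The responses of the 2 lines were compared directly as an interaction, the log2 fold change in ρ0 cells minus that in parental cells. It was 2.57 ± 0.117 for MT2A (adjusted p = 4.7e-05), 3.22 ± 0.2479 for MT1X (adjusted p = 0.00026) and 1.39 ± 0.2017 for MT1E (adjusted p = 0.0022). All 3 differences were positive, and each held at an adjusted p of at most 0.018 in every alternative fit run. Of the 6 members 3 were called higher by this test and 0 lower, beside 21.6% and 18.8% of all tested genes. For MT2A and MT1X the difference came with a fall in parental cells, and for MT1E with the rise in ρ0 cells alone passing the test.

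**Figure D2:**
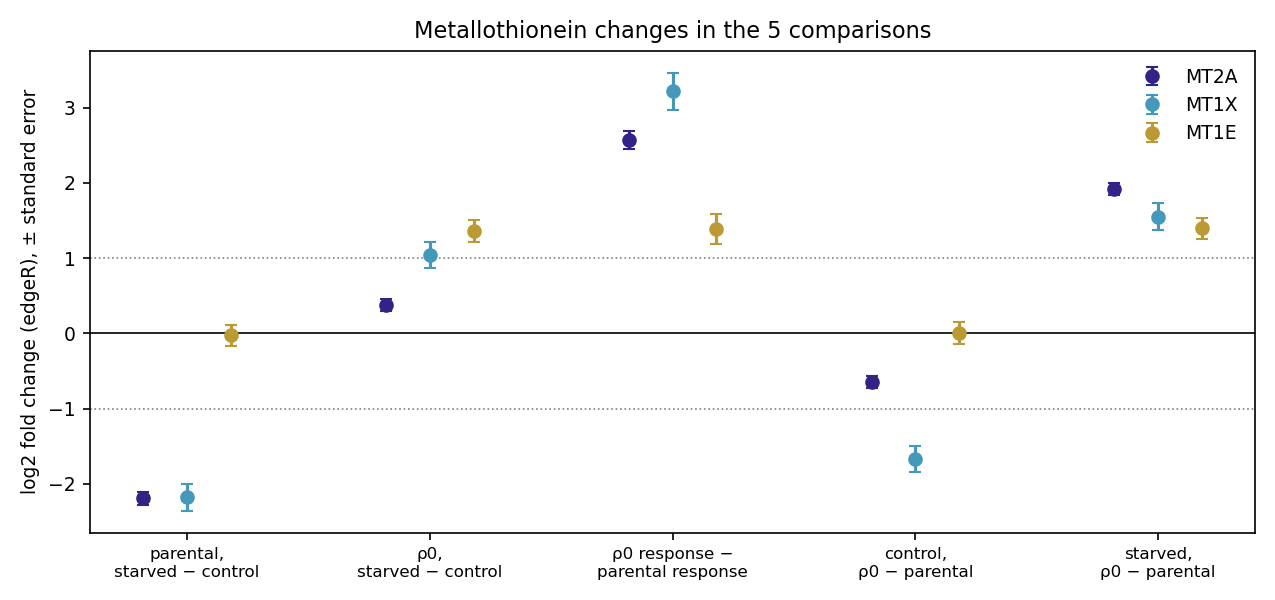
Log2 fold change (vertical axis) with its standard error from the fit to all 8 libraries, for MT2A, MT1X and MT1E in the 5 comparisons, with dotted lines at 1 and -1. The interaction is positive for all 3 genes, at 2.57, 3.22 and 1.39, and MT1E stands near 0 in starved parental cells and between the control groups.

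Between the lines in full medium, MT1X was lower in ρ0 cells by a log2 fold change of -1.67 ± 0.1732 (adjusted p = 0.00013), with both ρ0 libraries below both parental ones. MT2A was lower by -0.65 ± 0.081 (adjusted p = 0.00032), short of the fold threshold. MT1E differed by 0.00 ± 0.1427 (adjusted p = 0.98), and the sign of this value changed under other scalings. In this comparison 1 member was called lower (MT1X), where 17.3% of tested genes were. No member with counts in parental cells was called higher, where 13.6% of tested genes were, and MT1F, which had none, is described apart.

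After starvation the order of the lines was the opposite for MT2A and MT1X, which were higher in ρ0 than in parental cells, as was MT1E. The log2 fold change was 1.92 ± 0.0848 for MT2A (adjusted p = 2.5e-06), 1.55 ± 0.1775 for MT1X (adjusted p = 0.00018) and 1.39 ± 0.1436 for MT1E (adjusted p = 0.00011). Of the 6 members, these 3 were called higher and 0 lower, where 18.7% and 16.8% of tested genes were. MT1F, which had no parental counts, is not counted here. These comparisons share libraries with the responses above and are no separate evidence. In RNA from whole cultures, fewer cells that express a gene and less RNA of it per cell cannot be told apart.

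MT1F, an MT1 gene in the middle of the cluster, was found in ρ0 libraries only. It had 0 counts in all 4 parental libraries, where 3 counts, the limit that a count of 0 allows, correspond to 0.0899 to 0.119 CPM. It had 97 and 54 counts in ρ0 control and 52 and 34 counts in ρ0 starved libraries. Set against the highest parental floor of 3 counts, the ρ0 mean of MT1F was 24.5-fold higher in control and 13.3-fold higher in starved cells. The lower ρ0 libraries had 1.737 CPM in control and 1.408 CPM in starved cells, so these folds of means are no lower limits for a single library. Since it passed the filter only through the ρ0 libraries, it had to differ, and its fitted values there are not used. Its change with starvation in ρ0 cells was -0.68 ± 0.3853 (adjusted p = 0.22). The change was -0.12 without ρ0 control replicate 1 and -1.06 without ρ0 control replicate 2, so that its size depended on which control library was kept. No fold is given for parental cells.

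MT1G and MT1M were near or at 0 throughout. MT1G had 1 count in each parental control library, 0 in both parental starved ones, 0 and 2 in ρ0 control and 1 and 0 in ρ0 starved libraries. MT1M had 1 count in parental starved replicate 2 and 0 in the other libraries. Neither passed the filter, and no difference was detectable at this depth.

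Among 10 other metallothionein genes in the table, MT1A was the only one to reach 10 counts in any library. It had the pattern of MT1F. It had 0 counts in the 4 parental libraries, 123 and 124 counts in ρ0 control and 60 and 76 counts in ρ0 starved libraries. Its ρ0 mean was 39.6-fold above the highest parental floor in control and 21.8-fold above it in starved cells, where the lower ρ0 library had 2.028 CPM. The change of MT1A with starvation in ρ0 cells was -0.68 ± 0.2748 (adjusted p = 0.10). The other 9 genes, MT3, the brain metallothionein, among them, had at most 3 counts in any library. Beside the presence of MT1F and MT1A in ρ0 cells alone stand the luminal markers. Their 7 genes summed to 44.2 to 72.4 CPM in parental and 93.2 to 142 CPM in ρ0 libraries, with PGR at or near 0 in both. ERBB2 made up the largest part of these sums, and FOXA1 went the other way, so the sums do not describe a uniform shift of the markers. Their part in the result was not tested.

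The members also changed in proportion to each other. MT2A made up 67.5% and 67.9% of all metallothionein counts in parental control (Wilson 95% interval in replicate 1 from 66.3% to 68.7%) and 47.5% and 48.4% in parental starved libraries. MT1E made up 11.2% and 12.3% in parental control and 37.3% and 37.2% in parental starved libraries, although its level had not passed the test. In ρ0 cells MT1E made up 18.9% and 17.2% in control and 30.1% and 29.3% in starved libraries, and MT2A 64.3% and 68.9% against 54.6% and 55.5%. MT1X made up 8.82% to 21.3% of the counts of a library. Summed over all metallothioneins, the level was 186.5 and 198.4 CPM in parental control, 59.6 and 59.13 CPM in parental starved, 135.4 and 114.5 CPM in ρ0 control, and 196.7 and 194.3 CPM in ρ0 starved libraries. Both ρ0 starved libraries lay within the range of parental control, with a smaller share of MT2A. Reads are not independent molecules, and the intervals cover counting error only.

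**Figure D3:**
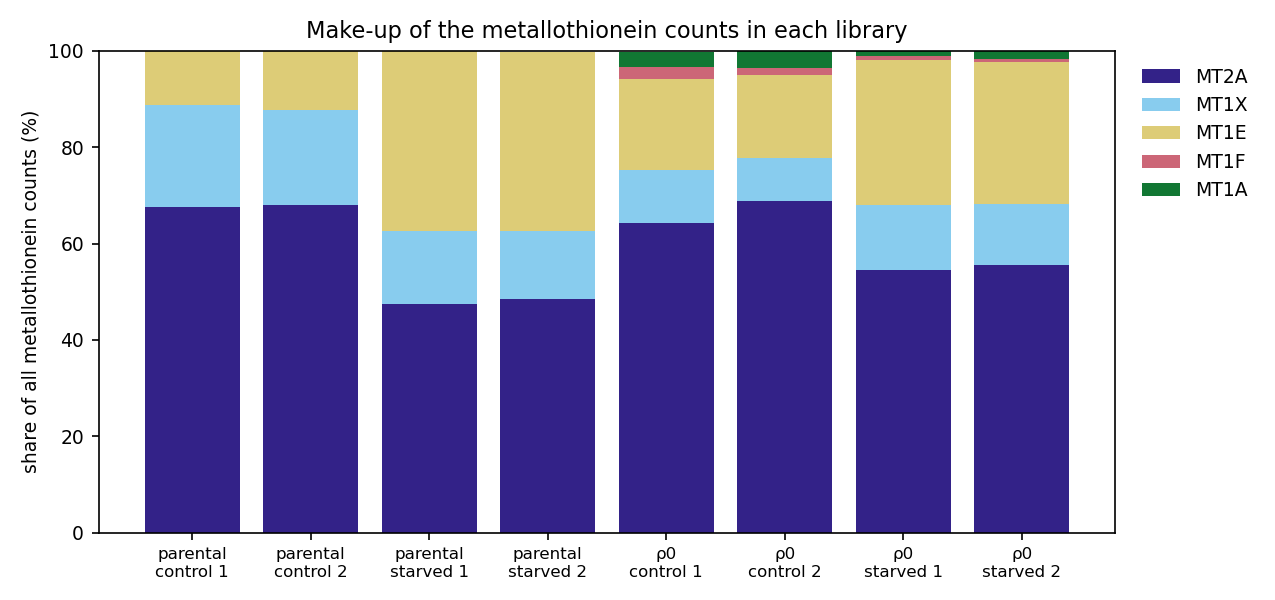
Share of all metallothionein counts (vertical axis, percent) taken by MT2A, MT1X, MT1E, MT1F and MT1A in each of the 8 libraries (bars). The MT1E share is 11.2% and 12.3% in parental control and 37.3% and 37.2% in parental starved libraries, and MT1F and MT1A appear in the 4 ρ0 libraries.

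Levels were compared between members per kilobase of transcript, with lengths of 786 nt for MT2A, 450 nt for MT1X, 704 nt for MT1E and 690 nt for MT1F, all with a coding length of 183 nt. In parental control, MT2A had 165.7 ± 7.89 CPM per kilobase (SD, n = 2), MT1X 87.84 ± 0.433 and MT1E 32.09 ± 3.53, an order in which no neighbours overlapped. In parental starved cells the order was MT2A, MT1E and MT1X, at 36.23 ± 0.294, 31.44 ± 0.244 and 19.37 ± 0.987 CPM per kilobase. In ρ0 control it was the same by mean, but the spreads of MT1E (32.19 ± 5.98) and MT1X (27.72 ± 7.46) overlapped. Both were measured in the same libraries, so these SDs do not test their difference. In ρ0 starved cells MT2A had 136.9 ± 0.503, MT1E 82.56 ± 2.26 and MT1X 56.7 ± 2.34 CPM per kilobase. MT1F was below these in ρ0 cells, at 3.697 ± 1.67 in control and 2.294 ± 0.358 CPM per kilobase in starved cells.

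Metallothionein genes are close copies, and reads can be assigned to the wrong one. Of all 50-base windows of the transcript, 4.88% in MT2A, 5.34% in MT1E, 3.59% in MT1F, 7.05% in MT1M and 20.2% in MT1G also occur in a transcript of another gene. In MT1X 45.1% do, and 16% of its windows are shared with metallothioneins. The other shared windows occur in AC026461.1, the only gene outside the family that shares any with MT1X. Windows were matched on either strand. How reads that match several genes were counted is not given in the sources used here, so the values of MT1X and MT1G are the least certain. MT2A and MT1E, with most windows of their own, moved differently in parental cells.

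Each response was fitted again without each library in turn. In these 8 fits the interaction ranged from 2.47 to 2.65 for MT2A, from 2.94 to 3.53 for MT1X and from 1.18 to 1.59 for MT1E, and the parental fall from -2.24 to -2.15 for MT2A and from -2.24 to -2.13 for MT1X. The widest shifts, for MT1X and MT1E, came without either ρ0 control library.

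**Figure D4:**
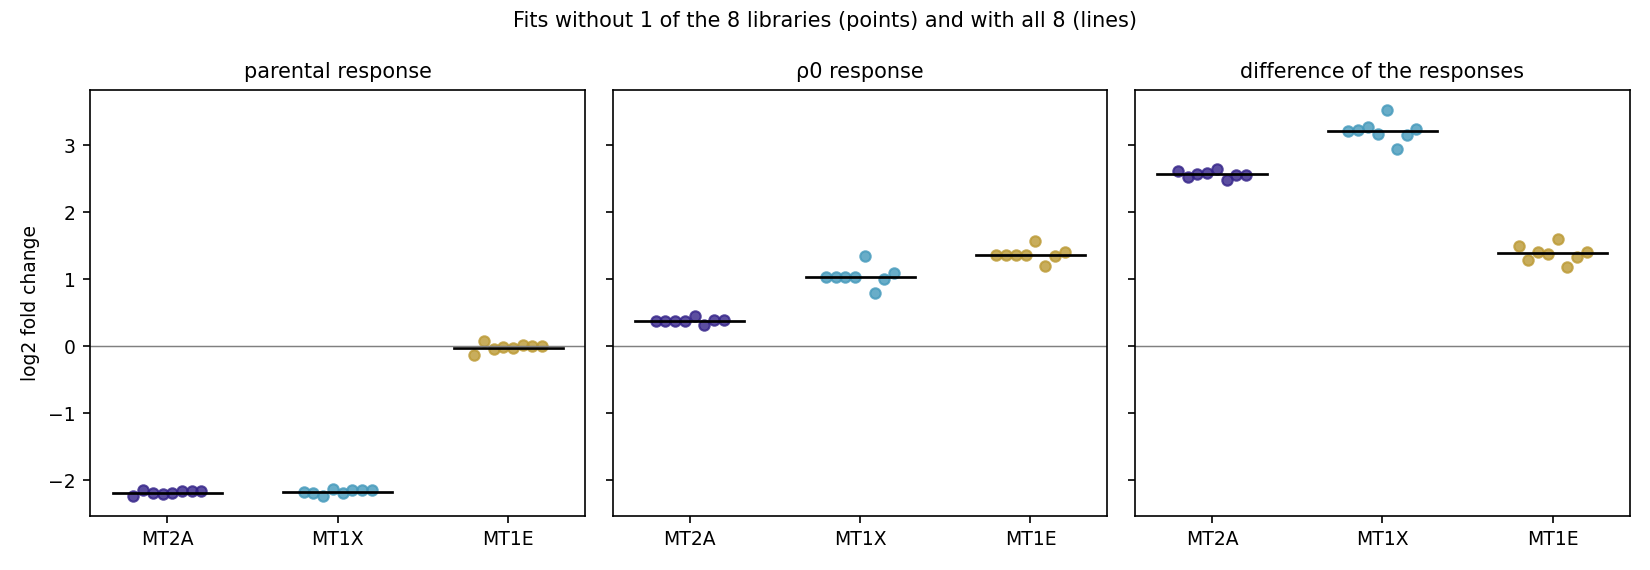
Log2 fold change (vertical axis) of MT2A, MT1X and MT1E in the parental response, the ρ0 response and their difference, with a point for each of the 8 fits that leave out 1 library and a line for the fit with all 8. The points of the difference lie between 1.18 and 3.53, all above 0, and the MT1X points of the ρ0 response spread from 0.80 to 1.34.

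Of 7 regulators of metallothionein genes tested, 2 were called higher and 0 lower in starved parental cells (median log2 fold change 0.29), and 0 higher and 1 lower in starved ρ0 cells (median 0.42). Of all tested genes, 12.7% were called higher and 22.1% lower in parental cells, and 4.22% and 8.19% in ρ0 cells. These shares stand beside the counts of this list and of each list below. MTF1, the zinc sensor, had 36.49 ± 3.56 CPM in parental control and 86.41 ± 1.34 CPM in parental starved cells, a log2 fold change of 1.24 ± 0.1089 (adjusted p = 5.7e-05). In ρ0 cells it changed by 0.87 ± 0.1089 (adjusted p = 0.00094), and the difference of the responses was -0.37 ± 0.1526 (adjusted p = 0.09). The difference was -0.47 without ρ0 control replicate 1 and -0.29 without ρ0 control replicate 2. MTF1 transcript thus rose where MT2A and MT1X fell. NR3C1, the glucocorticoid receptor, rose by 1.81 ± 0.1051 in parental cells (adjusted p = 1.3e-05) and by 0.70 ± 0.1022 in ρ0 cells (adjusted p = 0.0018), and the difference of -1.11 passed the test (adjusted p = 0.0015). The gene called lower in ρ0 cells was ZNF658, a zinc-responsive repressor named after its values were seen, with 9 to 33 counts in any library, and its call was lost with DESeq2 and with a minimum of 10 counts in every library. With upper quartile scaling or total counts, 1 regulator was called lower in parental cells.

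SLC30A1, the plasma membrane zinc exporter and another MTF1 target, rose in parental cells, where MT2A and MT1X fell. It had 9.372 ± 2.35 CPM in parental control and 40.83 ± 0.455 CPM in parental starved cells, a log2 fold change of 2.12 ± 0.1564 (adjusted p = 2.9e-05). In ρ0 cells it had 62.72 ± 2.85 CPM in control and 74.62 ± 0.0872 CPM in starved cells, a change of 0.25 ± 0.1441 (adjusted p = 0.2). The responses differed by -1.87 ± 0.211 (adjusted p = 0.00093), and the control groups by 2.74 ± 0.1583 (adjusted p = 9.2e-06). Of 7 zinc exporters tested, 1 was called higher and 1 lower in parental cells (SLC30A3, at 34 to 105 counts in parental libraries, named after its values were seen), and 0 in ρ0 cells with edgeR, DESeq2 or limma-voom, where 2 were higher by edgeR's test without the fold threshold.

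Of 11 zinc importers tested, 2 were called higher and 1 lower in parental cells (median 0.05), and 0 higher and 1 lower in ρ0 cells (median -0.01). SLC39A14, which carries zinc, iron and manganese, rose by 1.33 ± 0.0839 in parental cells (adjusted p = 1.6e-05) and by 0.93 in ρ0 cells (adjusted p = 0.00028, and 1.02 without ρ0 control replicate 1, past the fold threshold). SLC39A8, its close relative, rose by 1.14 ± 0.096 in parental cells (adjusted p = 4.8e-05, and 0.98 with total counts), with -0.04 in ρ0 cells (adjusted p = 0.74) and a difference of -1.19 (adjusted p = 0.00095). SLC39A10 fell in both lines, by -1.29 ± 0.0752 (adjusted p = 1.3e-05) and -1.02 ± 0.0749 (adjusted p = 0.00017), the latter -0.98 without ρ0 starved replicate 1, and 0 importers were called lower in ρ0 cells with no filter. The importers called thus moved in both directions, and their counts are too small to be read against the shares of all tested genes.

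Of 14 copper handling genes, 1 was called higher and 4 lower in parental cells (median 0.09), and 1 higher and 0 lower in ρ0 cells (median -0.15). COMMD1, which acts in copper export, rose by 1.58 ± 0.1203 in parental cells (adjusted p = 3.3e-05), with 0.14 in ρ0 cells (adjusted p = 0.37). The metalloreductases STEAP2 and STEAP3 fell in parental cells, by -1.72 ± 0.1226 and -1.30 ± 0.0926 (adjusted p = 2.6e-05 for both). In ρ0 cells they changed by -0.175 (adjusted p = 0.28) and -0.41 (adjusted p = 0.0099). ATP7B, a copper-exporting ATPase named after its values were seen, fell by -1.69 in parental cells (adjusted p = 0.00046) and rose by 1.05 in ρ0 cells (adjusted p = 0.011, and no copper gene was called higher with total counts). Its interaction of 2.74 (adjusted p = 0.0012) has the sign of those of MT2A and MT1X, but the list was split. Of the 14 copper genes, 3 had a positive and 3 a negative interaction that passed the test, beside 21.6% and 18.8% of tested genes. COMMD1 was among the negative ones, at -1.44 ± 0.168 (adjusted p = 0.001). CCS, the copper chaperone of superoxide dismutase, was likewise named after its values were seen. It fell by -1.21 in parental cells (adjusted p = 7.7e-05) and by -0.76 in ρ0 cells (adjusted p = 0.0015). The interaction of CCS, 0.45, did not pass the test (adjusted p = 0.055).

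**Figure D5:**
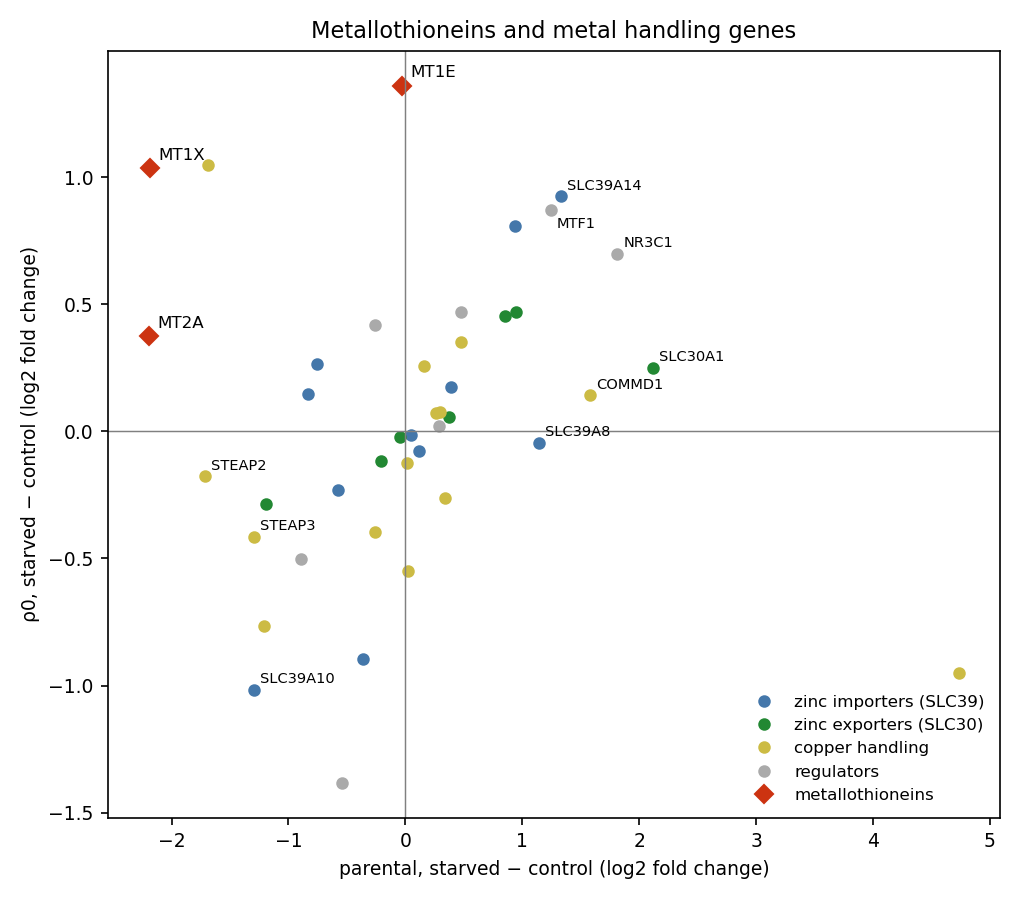
Log2 fold change with starvation in parental cells (horizontal axis) and in ρ0 cells (vertical axis) for the 3 abundant metallothioneins (diamonds) and the tested genes of 4 lists of metal handling genes and regulators (circles, a point per gene). MT2A and MT1X lie at the left with negative parental values (-2.19 and -2.18) and SLC30A1 at the right (2.12), and the circle at the far right is STEAP4, which had 0 counts in parental control and whose fitted value depends on the prior count.

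Of 8 glucocorticoid target genes tested, 6 were called higher and 0 lower in parental cells (median 1.17, and 4 higher with total counts), and 3 higher and 0 lower in ρ0 cells (median 0.95). TSC22D3, which encodes the mediator GILZ, rose by 1.66 ± 0.098 in parental cells (adjusted p = 1.4e-05) and by 0.93 ± 0.0961 in ρ0 cells (adjusted p = 0.00046). The phosphatase gene DUSP1 rose by 2.79 ± 0.1544 (adjusted p = 1.2e-05) and 2.26 ± 0.1521 (adjusted p = 0.00013). KLF9 rose in ρ0 cells by 1.29 ± 0.2371 (adjusted p = 0.0046, and 0.94 without ρ0 control replicate 2), with -0.34 in parental cells (adjusted p = 0.21). Several genes of this list also respond to other stresses, and MT2A was not among those that rose in parental cells.

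Genes of cysteine and glutathione metabolism, which supply the thiol that metallothioneins are rich in, rose in part. Of 8 tested, 4 were called higher and 1 lower in parental cells (median 1.31), and 3 higher and 1 lower in ρ0 cells (median 0.17). The gene called lower in both was GGT1, named after its values were seen. With limma-voom 0 were called lower in either line, and with total counts 2 were in parental cells. The cystine importer gene SLC7A11 rose by 2.54 ± 0.2481 (adjusted p = 9.1e-05) and 1.75 ± 0.243 (adjusted p = 0.0014). CTH, which makes cysteine from cystathionine, rose by 3.14 ± 0.1359 (adjusted p = 7.5e-06) and 3.02 ± 0.1362 (adjusted p = 3.9e-05), and CHAC1, which degrades glutathione, by 2.16 ± 0.3193 (adjusted p = 0.0007) and 2.47 ± 0.3234 (adjusted p = 0.0011). The remaining gene called higher in parental cells was GCLM, named after its values were seen. It rose by 1.94 ± 0.0819 in parental cells (adjusted p = 6.7e-06), with -0.12 in ρ0 cells (adjusted p = 0.27). The responses of GCLM differed by -2.06 ± 0.1124 (adjusted p = 9.7e-05), so the genes of this list did not all respond alike in the lines.

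Of 8 tested genes that flank the cluster on chromosome 16, 1 was called higher and 1 lower in parental cells (median 0.26), and 1 higher and 0 lower in ρ0 cells (median 0.12). BBS2, a gene of the ciliary BBSome and the nearest protein-coding neighbour on the MT4 side, fell by -2.17 ± 0.1495 in parental cells (adjusted p = 2.3e-05), with 0.22 ± 0.1376 in ρ0 cells (adjusted p = 0.24) and a difference of 2.39 ± 0.2024 (adjusted p = 0.00035). OGFOD1, the next gene beyond it, rose by 1.74 ± 0.0714 in parental cells (adjusted p = 6.7e-06) and by 0.76 ± 0.07 in ρ0 cells (adjusted p = 0.00031). HERPUD1, a gene of endoplasmic reticulum stress on the MT1X side, rose by 1.20 ± 0.1614 in ρ0 cells (adjusted p = 0.0013, and 0.96 without ρ0 control replicate 2). In parental cells it rose by 0.83 ± 0.1607 (adjusted p = 0.0026), short of the fold threshold. The difference of the responses was 0.36 ± 0.2257 (adjusted p = 0.24), and 0.67 without ρ0 control replicate 1. The nearest genes on one side therefore moved in opposite directions in parental cells.

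Over the 8 libraries, log2 CPM of MT2A and MT1X had a Pearson correlation of 0.87, MT1E had 0.36 with each of them, and MT1F ranged from -0.08 with MT1X to 0.46 with MT1E. Among 9948 genes outside the family with a mean of at least 10 CPM, those whose log2 CPM was most like the mean of the 4 members were SNX9, a sorting nexin (r = 0.994), IRGQ (r = 0.992), FBXL20, an F-box protein (r = 0.991), HAGH, the glyoxalase that hydrolyses lactoylglutathione (r = 0.990), and WDR19, a ciliary transport protein (r = 0.990). SNX9 had 92.7 and 86.9 CPM in parental control, 46.7 and 46.4 CPM in parental starved, 102 and 77.3 CPM in ρ0 control, and 143 and 142 CPM in ρ0 starved libraries. The mean was taken over standardised log2 CPM and weighted the 4 members equally. MT1F, which passed the filter only through the ρ0 libraries, was among them. Likeness to this mean is therefore not likeness to each member. MT2A averaged 130.3 CPM in parental and 82.98 CPM in ρ0 control, whereas the SNX9 control libraries of the lines overlapped. These correlations describe 4 group levels shared by 8 libraries.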

How the data were processed

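RNA-seq of 8 libraries was analysed from 1 table of read counts per gene symbol that the authors deposited, as whole numbers without normalization. The submitters' processing notes name Bowtie, Partek and hg19. The counter, the annotation and the treatment of reads that match several genes are not given in the sources used here. All 8 count columns matched sample titles, and groups were taken from the labels.

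The counts were tested in edgeR 4.0.16 under R 4.3.3 (filterByExpr, which kept 15262 of 23393 genes, TMM, and the quasi-likelihood test on all 8 libraries with 1 mean per group and 4 residual degrees of freedom). P-values were adjusted by Benjamini-Hochberg over all tested genes. Calls required an adjusted p under 0.05 together with an absolute log2 fold change of more than 1, a fold threshold not applied to the interaction. Each standard error was obtained as the fold change on the log2 scale over the root of the F statistic. The fits were tested on simulated data. Genes named from the lists were MTF1, NR3C1, SLC30A1 and, per response, up to 2 rises and 2 falls among called genes with a mean of at least 10 CPM, with exceptions marked. The likeness search used log2(CPM + 0.5). The members and lists were chosen with earlier results of these data known.

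Transcript lengths and shared windows came from GENCODE 29, and promoters from RefSeq. Totals of 25259503 to 31022155 counts set the floors. Alternatives were other scalings and filters, DESeq2 1.42.0, limma-voom (limma 3.58.1), a replicate block, fits to 4 libraries, no fold threshold and leaving out each library. Leaving out libraries for the genes of the lists was added after seeing the data.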

Additional observations from a re-analysis of the deposited data

Results flagged for a closer look

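For 3 metallothioneins the response to arginine starvation differed between the lines by the test of the difference itself (ρ0 response minus parental response, edgeR's quasi-likelihood test). The difference was 3.22 on the log2 scale for MT1X (adjusted p = 0.00026), 2.57 for MT2A (adjusted p = 4.7e-05) and 1.39 for MT1E (adjusted p = 0.0022). For MT1X both starved libraries moved down in parental cells and up in ρ0 cells. For MT2A they did so too, although the rise in ρ0 cells was 0.38. For MT1E the parental change was -0.03. Beside these values, the ρ0 control replicates differed more than those of the other groups, and their part in the differences was measured by leaving each out, with lowest values of 2.94, 2.47 and 1.18.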

How the results depend on the processing

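The numbers of metallothioneins called higher or lower were within 1.5 times the main count in 171 of 176 alternatives. The exceptions were these. In ρ0 starved cells, 1 member was called higher with total counts, and 1 to 2 across the fits that left out 1 library, while 0 to 1 was called lower (1 and 1 without ρ0 control replicate 2, as MT1F then reached -1.06). Between the control groups, 0 were called higher with a minimum of 10 counts in every library, which removes MT1F by construction, and 2 were called lower with no fold threshold, which adds MT2A. In the comparisons between the lines these counts include MT1F, with 1 member higher in control and 4 higher in starved cells in the main fit. MT1F had to differ there, and an alternative count of 0 beside a main count of 0 was taken as the same. The 171 are therefore no measure of how stable the called members were. Of 315 log2 fold changes of members under alternatives, 12 changed sign, all for MT1E where it was near 0. Its parental response was 0.0066 with only the 4 parental libraries, and -0.1365 to 0.0825 leaving out 1 library. Its difference between the control groups was -0.0212 with upper quartile scaling, -0.0953 with total counts, -0.0060 with a minimum of 10 counts, -0.0036 with limma-voom and -0.0009 with the replicate block, and -0.1939 to 0.2409 leaving out 1 library. The ρ0 response of SLC39A8 was -0.1582 to 0.0963 leaving out 1 library, a setting added once the data had been seen. The causes were not tested. Of 252 counts over the other lists, 33 moved by over 1.5 times.

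With the replicate number as a block, no count of called metallothioneins changed (2 lower in parental and 2 higher in ρ0 starved cells). Deviations of libraries with the same number correlated at -0.053 to 0.0386, so no effect shared by libraries of the same number was visible. This cannot exclude that such libraries were prepared together. Scaling moved the median log2 fold change of all genes in parental cells by -0.12 (upper quartile) and -0.16 (total counts). With a library left out, the lone library of a group was assumed to vary like the others. Each group has 2 libraries, and members with 3 or fewer counts per library could not be compared.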
